A study of Mus musculus and Homo sapiens with 12 samples.

Results

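PANC1 is an established human cell line from a pancreatic ductal carcinoma, and PANC1 LM3 is the line derived from it that the labels give as the 3rd liver metastatic generation. The comparison of these lines was analysed here from the authors' deposited table of 18190 genes, all of which were used; the series as a whole holds 41391 gene rows in 2 such tables. Each group had 3 samples that the labels call biological replicates, 6 in all. On day 1 both groups received 500000 cells by injection in the spleen, and the tumours of the liver were taken on day 21. Total RNA was taken from these tumours per the labels' protocols, while the sample titles name cells, so the share of host tissue in the libraries is not set by the labels. Both groups carry the genotype label WT. The labels give neither the host strain nor its immune state, nor the age of the animals, nor whether PANC1 LM3 is 1 clone or a pool.

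The authors' deposited table holds for each gene a mean normalised count over the libraries, called the level here, a log2 fold change with its standard error (SE), and a p-value. It gives no value per library, so values per sample, their overlap between groups and the depth of each library could not be shown. Its headers leave the numerator of the ratio unnamed, and nothing in the sources used here settles it. Every direction is therefore given as the sign that the authors' deposited table lists, positive or negative. Genes of 1 sign were higher in the same group, and genes of opposite sign were higher in opposite groups, but which group that was is not assigned. A gene was called where the authors' adjusted p was under 0.05, from the Wald test of DESeq2 with Benjamini-Hochberg adjustment. Unless another source is named, every log2 fold change, written with ± its SE, every level and every call below is from the authors' deposited table. The labels do not tie the samples to animals or cultures, so the p-values measure the spread between these samples, which may in part be technical. In bulk RNA, fewer cells of a type and less RNA per cell cannot be told apart.

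Pancreatic ductal carcinoma spreads mainly to the liver, where cells leave the blood, attach to matrix, and grow into a colony. Proteases of the matrix metalloproteinase and plasminogen families cut the matrix, integrins bind it, and cadherins and keratins hold epithelial cells in sheets. Signalling through the RAS and ERK cascade drives most tumours of this type, and its output includes its own feedback inhibitors. The genes below are ordered by these roles and then by growth, metabolism, immune genes and lineage.

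An adjusted p was listed for 17838 genes, and 9361 of them, or 52.5%, were called, 4634 positive and 4727 negative. At a level of 64 or more there were 11301 genes, of which 3698 (32.7%) were called positive and 4128 (36.5%) negative. A list in which 32.7% to 36.5% of members is called with each sign therefore looks like any other set of genes. Both shares are the comparison for each list count below, also where they are not repeated. Changes of more than 1 on the log2 scale, a doubling, were rarer at that level, with 685 genes (6.06%) positive and 807 (7.14%) negative. Past 2 on the log2 scale stood 137 positive and 187 negative genes, and past 3 stood 44 and 64. The median log2 fold change at 64 or more was -0.03, with quartiles of -0.40 and 0.34. The listed SE had a median of 0.09 at 64 or more and 0.66 below it, where 1535 of 6537 genes were called, 936 positive and 599 negative. Small differences passed the test at high levels, and 3597 of the genes called at 64 or more had an absolute log2 fold change under 0.5. Counts below refer to genes at 64 or more unless a lower level is given, and a gene can reach that mean through 1 of the groups alone.

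**Figure D1:**
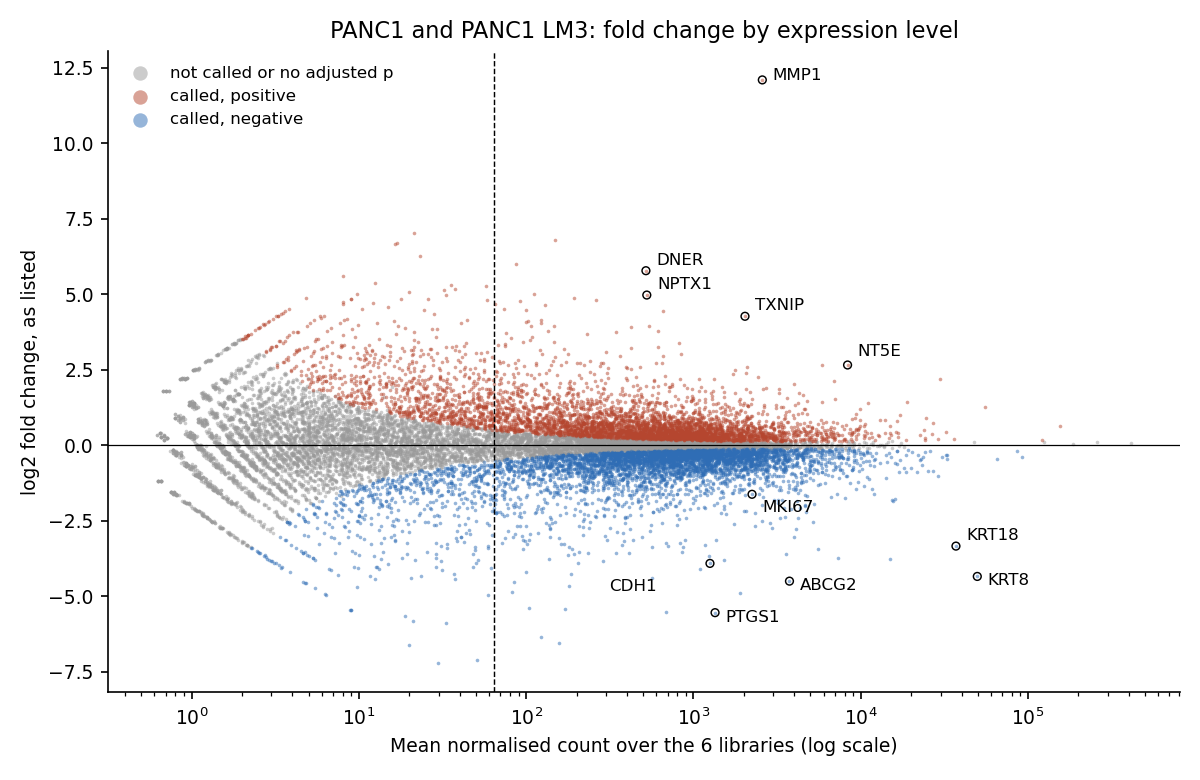
Each point is 1 gene, with its mean normalised count over the 6 libraries on a log axis and its listed log2 fold change; red and blue points were called with positive and negative sign, grey points were not, and the dashed line marks a level of 64. MMP1 stands alone at 12.09, and KRT8 and KRT18 combine large negative values with high levels.

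The most positive change belonged to MMP1, the interstitial collagenase that cuts fibrillar collagen. The authors' deposited table lists it at 12.09 ± 0.72 (level 2579). If the 6 libraries enter the mean equally and the fold is a ratio of group means, its group levels would be 5157 and 1.18. The lower of these is near a single read, so the fitted fold is not a bound, and the SE of MMP1 was the widest among genes at a level of 1024 or more. SLC6A15, a carrier of branched-chain amino acids and proline, was listed at 6.79 ± 0.50 (level 149). DUSP4, a nuclear phosphatase of ERK, was listed at 6.002 ± 0.51 (level 86.8). Their implied lower group levels were 2.67 and 2.67 by the same arithmetic, so these folds too rest on few reads in 1 group.

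Larger counts in both groups stood behind DNER, a transmembrane Notch ligand of neurons, at 5.77 ± 0.20 (level 520), with implied group levels of 1021 and 18.7. NPTX1, a secreted pentraxin that clusters glutamate receptors at synapses, was listed at 4.97 ± 0.16 (level 526), with implied levels of 1019 and 32.6. The other most positive genes were IL1RL1, the receptor of an alarmin cytokine, at 5.003 ± 0.34, and EGR1, an immediate-early transcription factor, at 4.87 ± 0.25. EPHB6, an ephrin receptor without kinase activity, was listed at 4.80 ± 0.21, and FGF5, a fibroblast growth factor, at 4.77 ± 0.35. TMEM40, a membrane protein, was at 4.66 ± 0.40, MME, the cell surface peptidase neprilysin, at 4.63 ± 0.28, and HTR7, a serotonin receptor, at 4.48 ± 0.31. Levels of these 7 genes ran from 65.4 to 260.

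The positive genes with the smallest p-values were more strongly counted. TXNIP, an alpha-arrestin that restrains glucose uptake, was listed at 4.26 ± 0.08 (level 2032). NT5E, the surface enzyme CD73 that makes adenosine from AMP, was at 2.65 ± 0.06 (level 8337). UAP1, which makes the sugar donor for N-glycans and hyaluronan, was at 2.64 ± 0.06 (level 5867). GAS5, a host gene of small nucleolar RNAs, was at 2.01 ± 0.05 (level 3971). In all, 5 positive and 20 negative genes had a p listed as 0.

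The most negative change was that of PPP2R2B, a regulatory subunit of a serine and threonine phosphatase, at -6.56 ± 0.50 (level 158). SCIN, an actin-severing protein of the gelsolin family, was listed at -6.37 ± 0.53 (level 122). PTGS1, the constitutive cyclooxygenase, was at -5.55 ± 0.22 (level 1346), with implied group levels of 2636 and 56.2. KCNK3, an acid-sensitive background potassium channel, was at -5.53 ± 0.18 (level 683). The lower group levels implied were 28.9 for KCNK3 but 3.32 and 2.93 for PPP2R2B and SCIN, whose folds rest on few reads in 1 group.

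CCM2L, an adaptor of endothelial signalling, was listed at -5.44 ± 0.34 and TSPAN18, a tetraspanin, at -4.68 ± 0.26. SCNN1B and SCNN1G, subunits of the epithelial sodium channel, were at -5.40 ± 0.43 and -4.86 ± 0.41. TMPRSS2, a membrane serine protease of epithelia, was at -4.89 ± 0.11 (level 1890). SLIT1, a repulsive guidance ligand, was at -4.54 ± 0.37. The implied lower group levels were 4.79 for SCNN1B, 5.53 for SCNN1G, 6.96 for SLIT1, 7.71 for CCM2L and 13.6 for TSPAN18. The folds of these genes too rest on few reads in 1 group. ABCG2, a drug efflux pump that also marks side population cells, was at -4.51 ± 0.09 (level 3748), with implied group levels of 7180 and 316. KRT8, a keratin of simple epithelia, was at -4.35 ± 0.06 (level 49702), with implied levels of 94761 and 4644. KRT8 also had a p listed as 0, a tie shared by the 20 negative genes above, TMPRSS2 and ABCG2 among them. Ordered by the listed Wald score, KRT8, KRT19, KRT18, CRABP2 and PDE5A came first among these. CRABP2, which carries retinoic acid to its nuclear receptor, was at -3.73 ± 0.06 (level 7269), and PDE5A, the cyclic GMP phosphodiesterase, at -3.62 ± 0.07 (level 3560).

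**Figure D2:**
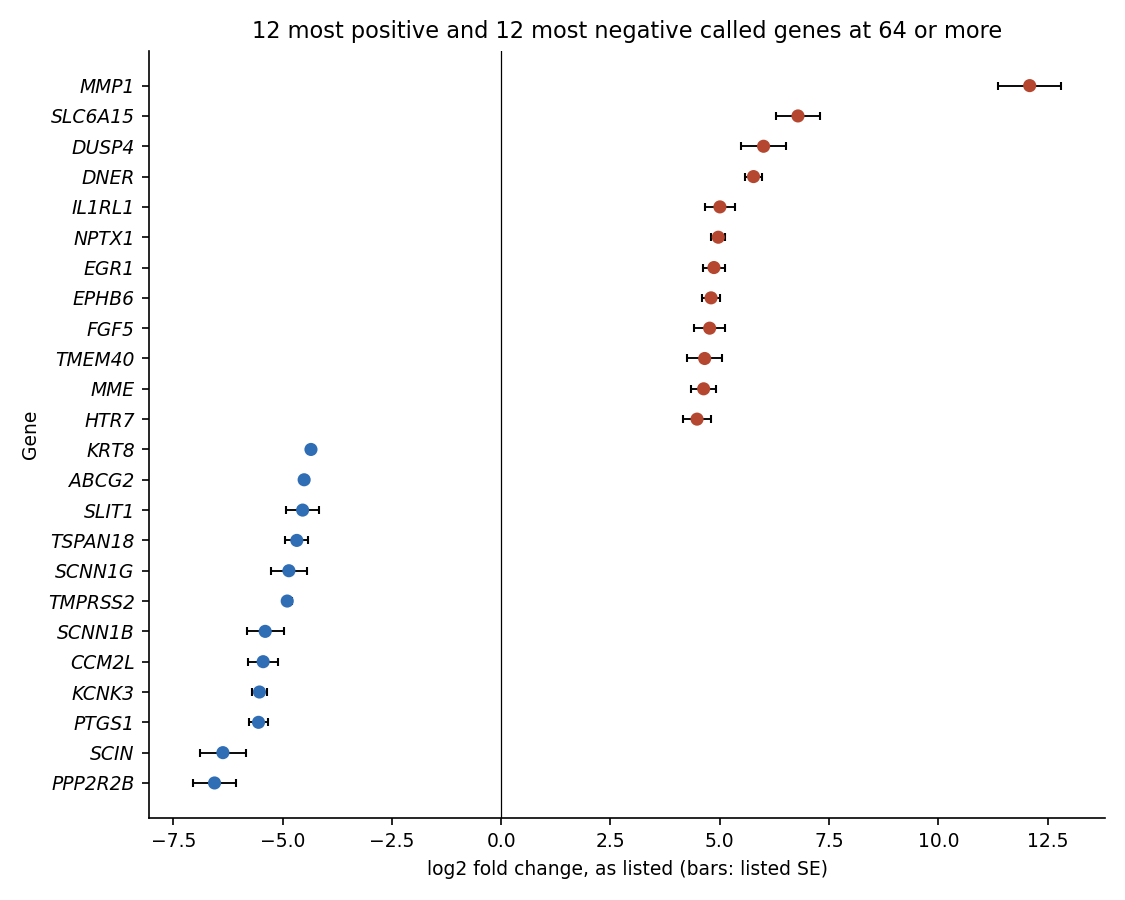
Points show the listed log2 fold change of the 12 most positive and 12 most negative called genes at a level of 64 or more, and bars the listed SE. MMP1 lies farthest from 0 at 12.09 ± 0.72, and the rest lie between -6.56 and 6.79.

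Matrix metalloproteinases did not share a sign. Of 14 genes of the family listed in the authors' deposited table, 8 reached 64, with 3 called positive and 3 negative, and a median near 0 whose sign changes with the scaling. MMP11, a stromelysin, was listed at 1.43 ± 0.23 (level 67.5) and MMP14, the membrane collagenase that activates MMP2, at 0.36 ± 0.08 (level 970). MMP2, a gelatinase of basement membranes, had the opposite sign to MMP1, at -2.68 ± 0.07 (level 2326). MMP16 and MMP15, further membrane-bound members, were at -0.74 ± 0.08 and -0.58 ± 0.16. The inhibitors TIMP1 and TIMP2 were both positive, at 1.08 ± 0.07 and 1.14 ± 0.09, and the membrane inhibitor RECK was at -0.24 ± 0.09.

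Genes of the plasminogen system had both signs. The serpins SERPINE2 and SERPINB8 were listed at 2.36 ± 0.24 and 3.31 ± 0.29. PLAU, the urokinase, was at 0.38 ± 0.05 (level 6165), and its receptor PLAUR at 0.99 ± 0.20 (level 90). SPINT1 and SPINT2, membrane inhibitors of epithelial serine proteases, were negative at -1.43 ± 0.14 and -0.55 ± 0.05, as was SERPINI1 at -1.15 ± 0.17. In all, 5 of 11 members were called positive and 4 negative.

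Among ADAM and ADAMTS proteases 8 of 12 were called positive and 4 negative. ADAMTS16 was listed at 3.28 ± 0.28 (level 74.7), ADAMTS13 at 1.48 ± 0.23 (level 67.1) and ADAM8 at 1.26 ± 0.20 (level 95.3). The sheddases ADAM17 and ADAM10, which release ligands of the EGF family and cut Notch, were better counted and differed in sign. ADAM17 was at 0.20 ± 0.06 (level 2131) and ADAM10 at -1.06 ± 0.06 (level 4388). ADAMTS15, a proteoglycan-cleaving member, was negative at -1.33 ± 0.06 (level 1901).

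Collagen chains had both signs. Of 33 chains with a row 20 reached 64, with 10 called positive, 7 of them past a doubling, and 4 called negative. The same shares over all genes at 64 or more were 32.7%, 6.06% and 36.5%. The basement membrane chains COL4A1 and COL4A2, which assemble together, were listed at 2.56 ± 0.13 (level 310) and 2.23 ± 0.11 (level 393). The microfibrillar chains COL6A1 and COL6A2 were at 1.78 ± 0.08 (level 1085) and 1.93 ± 0.09 (level 720). COL13A1, a transmembrane collagen, and COL8A2 were at 2.38 ± 0.22 and 2.34 ± 0.19. Chains of fibrils and anchoring fibrils differed among themselves. COL3A1 was listed at 1.05 ± 0.11, whereas COL5A2, COL11A1 and COL7A1, the anchoring fibril chain, were negative at -1.47 ± 0.05 (level 11735), -1.81 ± 0.06 and -1.29 ± 0.12. COL26A1 was the most negative chain at 64 or more, at -2.55 ± 0.15. COL1A1, the main fibrillar chain of stroma, was not called, at -0.13 ± 0.16 with a 95% interval from -0.44 to 0.17.

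Laminin chains that assemble together in the laminin of hemidesmosomes were listed with different signs. LAMB3 was positive at 3.49 ± 0.24 (level 105), and LAMA3, its partner alpha chain, was negative at -1.23 ± 0.12 (level 267). TNC and FN1, large matrix glycoproteins, were positive at 0.85 ± 0.07 and 0.78 ± 0.14. SPARC and THBS1, matricellular proteins that loosen cell contacts with the matrix, were negative at -1.51 ± 0.08 (level 1489) and -2.08 ± 0.09 (level 1168), and NID1, which links laminin to collagen, at -1.07 ± 0.06. LAMA5 was listed at -0.81 ± 0.23, with an SE far above the median of 0.064 for genes at 1024 or more. Of 16 basement membrane genes 9 were called positive and 6 negative.

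Every integrin subunit at 64 or more was called, 6 positive and 6 negative. ITGA10, a collagen receptor chain, was listed at 2.64 ± 0.15 (level 222). ITGA3 and ITGA2, which pair with the beta chain ITGB1 to bind laminin and collagen, were at 1.42 ± 0.05 (level 18868) and 0.75 ± 0.06 (level 5944), and ITGB1 itself at 0.43 ± 0.06. On the negative side stood the chains of fibronectin and vitronectin receptors, with ITGA5 at -1.32 ± 0.06 (level 3739), ITGAV at -0.75 ± 0.06, ITGB5 at -0.43 ± 0.05, ITGB3 at -0.54 ± 0.09 and ITGB8 at -2.26 ± 0.17. ITGB4, the hemidesmosome chain, was at -0.75 ± 0.08.

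The keratins of simple epithelia were negative together, at high counts. KRT18 was listed at -3.35 ± 0.05 (level 37055) and KRT19 at -3.79 ± 0.05 (level 15012), beside KRT8. KRT15 was at -2.65 ± 0.10 (level 793). KRT10 and KRT80 were slightly positive, at 0.29 ± 0.12 and 0.25 ± 0.09, so 4 of 6 keratins at 64 or more were negative and 2 positive. KRT7, another duct keratin, was under 64 and not called, at 0.09 ± 0.26 (level 45.4). KRT8 and KRT18 have many near-identical processed copies in the genome, and how shared reads were counted is not given in the sources used here.

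No cadherin or protocadherin at 64 or more was called positive, and 12 of 14 were called negative, 9 of them past a halving, against 7.14% of all genes at that level. CDH1, the adhesion molecule of epithelial sheets, was listed at -3.92 ± 0.10 (level 1255), with implied group levels of 2354 and 156. CDH3, the placental cadherin, was at -3.55 ± 0.11 (level 850). CDH2, the neural cadherin that often replaces CDH1 in mesenchymal cells, had the same sign as CDH1, at -2.03 ± 0.09 (level 778). PCDH18, CDH18 and PCDH7 were at -3.59 ± 0.14, -3.44 ± 0.20 and -3.36 ± 0.12. FAT4 and DCHS1, a receptor and ligand pair of planar polarity, were not called, at 0.01 ± 0.08 and 0.11 ± 0.18, and at an unadjusted p under 0.05 the DESeq2 test gave no positive member either. Members under 64 with positive calls were CDH26 and CDH17, at levels of 28.6 and 34.

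Other junction genes did not follow CDH1 as a group. Of 23 epithelial junction genes 10 were called negative and 7 positive, with a median of 0.03. ELF3, an epithelial transcription factor, and CDS1, a phospholipid enzyme, were negative at -3.67 ± 0.09 (level 1230) and -3.18 ± 0.13. JUP and PPL, plaque proteins of desmosomes and adherens junctions, were at -1.38 ± 0.07 and -1.32 ± 0.07, and F11R of tight junctions at -0.76 ± 0.07. EPCAM, CLDN1 and DSC2 had the opposite sign, at 0.97 ± 0.10, 0.71 ± 0.08 and 1.05 ± 0.15. OCLN, the occludin of tight junctions, was not called at 0.07 ± 0.08, with a 95% interval from -0.09 to 0.24.

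Mesenchymal genes were likewise divided, with 5 of 15 called positive and 9 negative. S100A4, LOXL2 and VIM, genes of mesenchymal and invasive cells, were negative together with CDH2, at -2.13 ± 0.06 (level 3815), -1.66 ± 0.07 and -0.46 ± 0.05 (level 32636). CCN2 and AXL were positive at 1.22 ± 0.06 (level 3131) and 0.81 ± 0.06 (level 5748). The repressors of CDH1 transcription ZEB1 and SNAI1 were positive by small amounts, at 0.34 ± 0.07 and 0.61 ± 0.20, and ZEB2 was listed at 3.84 ± 0.51 at a level of only 27.3. Neither the epithelial nor the mesenchymal genes thus carried 1 sign.

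Genes of ERK output and feedback were mostly positive. Of 25 such genes at 64 or more 19 were called positive, 13 of them past a doubling, and 2 negative. Over all genes at that level 32.7% were called positive, 6.06% positive past a doubling, and 36.5% negative. The median of the list was 1.08 against -0.03 for all genes at that level. Among the inhibitors that ERK induces, DUSP6, the cytoplasmic ERK phosphatase, was listed at 2.16 ± 0.10 (level 581). DUSP5, its nuclear counterpart, was at 0.65 ± 0.07 (level 1263). SPRY2 and SPRY4, which block the pathway upstream, were at 1.80 ± 0.08 and 0.91 ± 0.07, whereas their relative SPRY1 was negative at -0.94 ± 0.08. Of 9 MAP kinase phosphatases, a list added after the table had been seen that shares DUSP4, DUSP5, DUSP6 and DUSP7 with the ERK list, 7 were called positive and 0 negative.

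The ligands of EGF family receptors were not uniform. EREG was listed at 2.48 ± 0.07 (level 1778) and HBEGF at 2.52 ± 0.11 (level 423), while TGFA was negative at -2.21 ± 0.26 (level 66.5). AREG and BTC were positive at levels of 16.1 and 33.1. Among the transcription factors and targets, FOSL1, the AP-1 member most tied to ERK, was at 2.20 ± 0.08 (level 1075), ETV4 at 1.37 ± 0.17 and ETV1 at 1.13 ± 0.12. The PEA3 factor ETV5 was at 0.37 ± 0.06. CCND1, the G1 cyclin, was at 1.12 ± 0.05 (level 3722), and the cytokines LIF and IL11 were at 1.08 ± 0.06 (level 1492) and 1.23 ± 0.22.

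**Figure D3:**
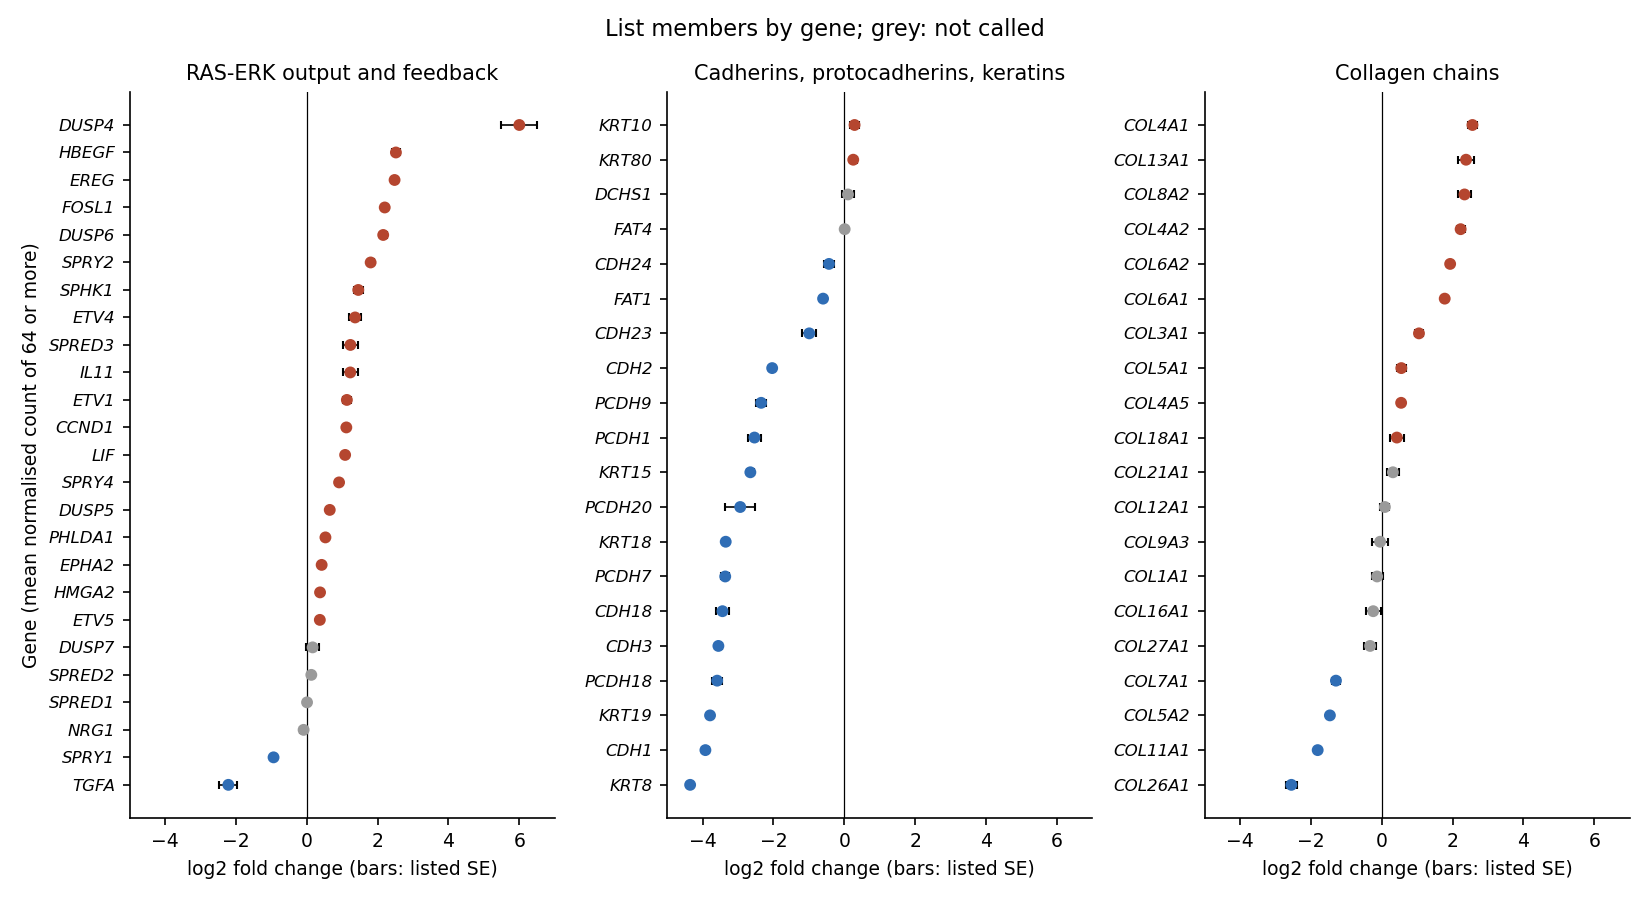
Members at a level of 64 or more of 3 groups of genes are shown by their listed log2 fold change, with the listed SE as bars; red, blue and grey mark called positive, called negative and not called. ERK output genes lie mostly right of 0, cadherins and simple keratins left of it, and collagen chains on both sides.

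Early response genes shared the sign of the ERK list in part. JUN was listed at 2.27 ± 0.06 (level 2436), FOSL2 at 1.14 ± 0.07, ZFP36, which destabilises cytokine transcripts, at 1.11 ± 0.06 and KLF6 at 1.01 ± 0.06. JUND was negative at -0.62 ± 0.12. FOS itself was at a level of 22.8. Several heat-shock chaperones on the same list had the other sign, with HSPA8 at -0.86 ± 0.06 (level 25337), HSPH1 at -0.84 ± 0.06, DNAJA1 at -0.83 ± 0.06 and HSP90AA1 at -0.40 ± 0.06. In total 10 of 24 were positive and 9 negative.

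Receptor kinases ranged from EPHB6 to RET. RET, the receptor of glial-derived neurotrophic factors, was listed at -4.10 ± 0.11 (level 1094). ERBB2, the ligandless EGF family receptor, was at -1.83 ± 0.08 (level 1021), EPHB4 at -1.55 ± 0.06 (level 3682) and IGF1R at -0.74 ± 0.07. MERTK, which recognises dying cells, was positive at 2.36 ± 0.08 (level 1730), and so were FGFR1 at 0.82 ± 0.07 and MET, the receptor of hepatocyte growth factor, at 0.38 ± 0.06 (level 6929). Of 19 receptor kinases 8 were called positive and 8 negative. The fibroblast growth factors FGF2 and FGF11 had the sign of FGF5, at 0.76 ± 0.08 (level 822) and 1.66 ± 0.18 (level 118).

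Components of TGF-beta and BMP signalling had both signs. Among BMP target genes ID1 was listed at -1.85 ± 0.10 (level 833), SMAD6 at -3.28 ± 0.20 (level 168), ID3 at -1.08 ± 0.16 and SMAD7 at -1.10 ± 0.13. The receptors BMPR2 and BMPR1A were at -0.77 ± 0.06 and -0.83 ± 0.07. The ligand BMP5 was at -2.59 ± 0.11 and BMP6 at 1.96 ± 0.08, with opposite signs. INHBB, an activin chain, and TGFBR3, the co-receptor betaglycan, were at -3.23 ± 0.11 (level 681) and -2.88 ± 0.14 (level 349). The latent TGF-beta binding proteins LTBP1, LTBP2, LTBP3 and LTBP4 were positive at 0.43 ± 0.07, 0.60 ± 0.05, 0.40 ± 0.09 and 1.81 ± 0.12. SMURF2, a ligase that removes the receptors, was at 1.74 ± 0.07 (level 1512), and PMEPA1, a feedback inhibitor of TGF-beta, at 0.86 ± 0.08. The receptors TGFBR1 and TGFBR2 were negative at -0.68 ± 0.08 and -0.31 ± 0.06. Over the whole list 12 of 41 were called positive and 20 negative.

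WNT pathway genes were called negative in 11 of 22 cases and positive in 6, beside 36.5% and 32.7% of all genes at 64 or more. LGR4, which amplifies WNT signals, was listed at -1.81 ± 0.07 (level 3373), the frizzled receptors FZD4, FZD7 and FZD2 at -2.20 ± 0.14, -1.28 ± 0.09 and -1.26 ± 0.12, and the transcription factor TCF7 at -2.23 ± 0.19. WNT9A was at -2.11 ± 0.12. The secreted inhibitor SFRP1 was positive at 1.47 ± 0.10 (level 432) and DKK3 at 0.69 ± 0.06, whereas DKK1 was slightly negative at -0.31 ± 0.05 (level 10274). RNF43, a ligase that removes frizzled receptors, was at -4.32 ± 0.67 at a level of 23.4.

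Notch pathway genes, DNER included, were called positive in 10 of 20 cases and negative in 3, beside 32.7% and 36.5% of all genes at 64 or more. The ligand DLL3 was listed at 1.20 ± 0.07 (level 1541), the receptor NOTCH3 at 2.08 ± 0.23 (level 78.3), and the targets HES4 and HES1 at 1.54 ± 0.18 and 0.82 ± 0.10. JAG1 was at 0.53 ± 0.08. LFNG, a glycosyltransferase that tunes ligand choice, was negative at -1.67 ± 0.12 (level 373), as was NOTCH2 at -0.40 ± 0.05 (level 5827). NOTCH1 was not called, at -0.05 ± 0.13.

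Of 25 target genes of YAP and TAZ 13 were called positive, 6 of them past a doubling, and 4 negative. The same shares over all genes at 64 or more were 32.7%, 6.06% and 36.5%. Beside NT5E the members past a doubling included IGFBP3, an insulin-like growth factor binding protein, at 2.57 ± 0.12 (level 476). They also included FSTL1 at 1.62 ± 0.11 and the matricellular gene CCN1 at 1.31 ± 0.06 (level 4017). The tissue factor gene F3 was at 1.29 ± 0.14. AMOTL2 and CRIM1, also on the list, were not called, at 0.03 ± 0.05 and -0.04 ± 0.06. NT5E, AXL and CCN2 stand on other lists too.

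Genes of cell division were almost all negative. Of 35 cell cycle and mitosis genes at 64 or more 33 were called negative, 14 of them past a halving, and 0 positive, where 36.5% and 32.7% of all genes at that level were. The proliferation antigen MKI67 was listed at -1.63 ± 0.07 (level 2239). The mitotic cyclin CCNB1 was at -1.71 ± 0.06 (level 2602), the kinase AURKA at -1.29 ± 0.06, PRC1 of the central spindle at -1.31 ± 0.06 and MYBL2, a transcription factor of mitotic genes, at -2.23 ± 0.11. CDC25B and BUB3 were not called, at 0.11 ± 0.06 and -0.05 ± 0.05. No member had a positive sign at an unadjusted p under 0.05 in the DESeq2 test either, although CDC25B was called positive after recentring on the median of all genes.

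DNA replication genes showed the same sign, with 37 of 39 called negative and 1 positive, and a median of -0.95. Over all genes at 64 or more 36.5% were called negative and 32.7% positive. The helicase subunits MCM4, MCM3 and MCM5 were listed at -1.91 ± 0.07 (level 1642), -1.48 ± 0.06 and -1.33 ± 0.07. RRM2 of ribonucleotide reductase was at -1.56 ± 0.06 (level 1872), GINS2 at -2.07 ± 0.19 and the transcription factor E2F1 at -1.63 ± 0.10. GINS3 was the member called positive, at 0.65 ± 0.14 (level 181). Genes of crosslink repair and homologous recombination leaned the same way, 16 of 24 negative and 3 positive. RAD54L was at -1.53 ± 0.14, BRIP1 at -1.41 ± 0.13 and FANCI at -1.39 ± 0.08 (level 1256).

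All 45 replication-dependent histone genes at 64 or more were called negative, 37 of them past a halving, with values from -3.61 to -0.51 and a median of -1.74. Among all genes at that level 36.5% were called negative, and 7.14% negative past a halving. The histone list was added after the table had been seen. H1-5, a linker histone, was listed at -2.62 ± 0.08 (level 1751), H2BC3 at -3.04 ± 0.12 (level 496) and H2AC4 at -3.61 ± 0.21 (level 192). H2BC12 and H4C5 were nearest to 0, at -0.51 ± 0.08 and -0.53 ± 0.08. These transcripts are made in S phase and lack a poly(A) tail, and many are near-identical between genes, so their reads can be split among copies. Other abundant RNAs without a tail, named after their values were seen, had no common sign. RPPH1 was called positive at 0.64 ± 0.12 (level 155484) and RMRP negative at -0.40 ± 0.16 (level 91394), whereas RN7SK, RN7SL1, RN7SL2 and SNORD3A were not called, at 0.07 ± 0.07, 0.10 ± 0.07, 0.04 ± 0.07 and 0.10 ± 0.14. RN7SK and RN7SL1 had the highest levels of all genes, at 412521 and 256746. Whether poly(A) RNA was selected is not given in the sources used here, and its bearing on the histone values was not tested.

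Regulators of G1 had both signs. The cyclins CCND1 and CCND2 were positive, CCND2 at 2.71 ± 0.21 (level 115), as were CDK6 and CDK4 at 0.39 ± 0.06 and 0.36 ± 0.07. The inhibitors CDKN1C and CDKN1B were positive as well, at 1.81 ± 0.17 (level 137) and 0.43 ± 0.07. CDKN2C, an inhibitor of those kinases, was negative at -1.99 ± 0.12 (level 353), and CDKN1A was not called at -0.10 ± 0.10. In all 7 of 15 were positive and 5 negative.

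**Figure D4:**
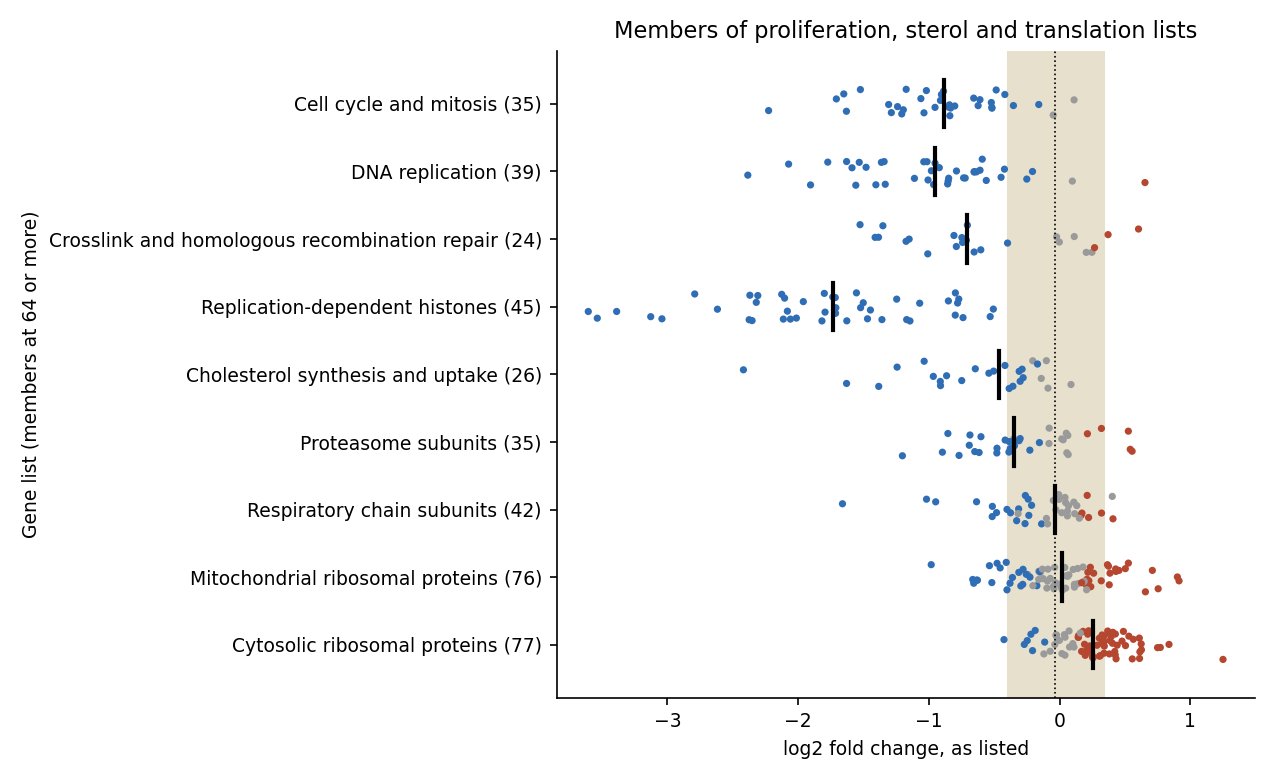
Each point is 1 member at a level of 64 or more, placed at its listed log2 fold change (red called positive, blue called negative, grey not called; the vertical scatter has no meaning), black bars are list medians, the band covers the quartiles of all genes at that level and the dotted line their median. Histone, replication and mitosis members lie left of the band for the most part, and cytosolic ribosomal proteins in its right part or beyond.

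Cytosolic ribosomal protein genes were positive by small amounts. Of 77 genes 54 were called positive and 7 negative, with a median of 0.26 and 1 past a doubling. Among all genes at 64 or more 32.7% were called positive, 36.5% negative, and 6.06% positive past a doubling. RPL3 was listed at 0.84 ± 0.05 (level 9957), RPL37 at 0.62 ± 0.04 (level 10456) and RPS6 at 0.56 ± 0.05. RPS16, the member past a doubling, was at 1.25 ± 0.23 (level 55027), with an SE well above those of its neighbours in level. Most of these genes have processed copies, so single values are uncertain. Of 76 mitochondrial ribosomal proteins 23 were called positive and 21 negative as listed, 27 and 16 with a running median over level subtracted, 25 and 18 after recentring, and 16 and 12 with a t distribution.

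Host genes of small nucleolar RNAs included large positive values. Beside GAS5, ZFAS1 was listed at 1.88 ± 0.06 (level 2732), SNHG15 at 1.47 ± 0.08 (level 905), SNHG17 at 1.26 ± 0.12 and SNHG6 at 1.09 ± 0.08. Others were negative, with DANCR at -0.99 ± 0.15 and SNHG16 at -0.57 ± 0.06 (level 3220). In total 12 of 24 were positive and 9 negative. Proteasome subunits were called negative in 21 of 35 cases and positive in 5 as listed, or 19 and 8 with the running median subtracted. Among all genes at 64 or more 36.5% were called negative and 32.7% positive. PSMD1 was at -1.20 ± 0.06 and PSMD2 at -0.90 ± 0.05.

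Cholesterol synthesis and uptake had 21 of 26 genes called negative and 0 positive, 5 past a halving. The same shares over all genes at 64 or more were 36.5%, 32.7% and 7.14%. DHCR7, a reductase late in the pathway, was listed at -1.24 ± 0.06 (level 2304). ACAT2, at the entry of the pathway, was at -1.63 ± 0.09, and FDFT1, the squalene synthase, at -1.04 ± 0.08. INSIG1, which holds the sterol sensor in the endoplasmic reticulum, was at -0.97 ± 0.08. SREBF2, the master regulator of the pathway, was not called at 0.09 ± 0.07, while SREBF1 was at -0.64 ± 0.07 (level 1938). No member was positive at an unadjusted p under 0.05 in the DESeq2 test either, but SREBF2 was called positive once a running median over level was subtracted.

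Fatty acid genes had both signs. FASN, the fatty acid synthase, and ACACA and ACLY, which supply it, were negative at -1.94 ± 0.18 (level 5273), -0.88 ± 0.06 and -0.88 ± 0.05. The desaturases FADS2 and SCD were at -2.43 ± 0.07 (level 4188) and -1.04 ± 0.06 (level 29136). ELOVL6, an elongase of saturated chains, was positive at 2.73 ± 0.24 (level 85.2), FADS3 at 1.22 ± 0.09 and the acyl-CoA synthetases ACSL1 and ACSL4 at 0.95 ± 0.09 and 0.62 ± 0.06. Altogether 7 of 19 were positive and 9 negative.

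Glycolysis genes were called positive in 7 of 23 cases and negative in 9. HK2, the inducible hexokinase, was listed at 3.67 ± 0.17 (level 232), ENO2 at 2.15 ± 0.11 (level 401), and the transporter SLC2A1 at 1.05 ± 0.09 (level 572). Among the 9 negative members were GAPDH at -0.67 ± 0.04 (level 23090), PKM at -0.63 ± 0.04 (level 16520), TPI1 at -0.75 ± 0.05 and LDHA at -0.55 ± 0.05. TXNIP and its relative ARRDC4, both induced by glucose through the same factor, were positive together, ARRDC4 at 2.37 ± 0.13 (level 306). ARRDC3 was at 1.51 ± 0.06 (level 2234), and MLXIP, a glucose-sensing transcription factor, was negative at -1.42 ± 0.07 (level 1296).

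Hypoxia target genes were positive in 10 of 23 cases and negative in 5. NDRG1 was listed at 2.64 ± 0.18 (level 162), P4HA2 at 1.26 ± 0.08 and ADM at 0.91 ± 0.05, and the hypoxia factors EPAS1 and HIF1A at 0.96 ± 0.06 and 0.40 ± 0.07. VEGFA, a classic target, was not called, at 0.03 ± 0.06 (level 2738) with a 95% interval from -0.08 to 0.14. PLOD2 and PLOD1, which hydroxylate collagen, were negative at -1.33 ± 0.08 and -0.96 ± 0.07. Respiratory chain subunits had a median near 0, whose sign changes with the scaling, and 6 of 42 were called positive and 17 negative. These counts also moved with the scaling, to 14 positive and 15 negative with a running median over level subtracted and 10 and 16 after recentring, and to 2 and 13 with a t distribution. NDUFB10 and NDUFA1 of complex I were the most negative, at -1.66 ± 0.08 and -1.02 ± 0.06.

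Genes of the unfolded protein and integrated stress responses were positive in 17 of 28 cases and negative in 6. Over all genes at 64 or more 32.7% were called positive and 36.5% negative. PPP1R15A, which restores translation after stress, was listed at 2.20 ± 0.07 (level 1329). HSPA5, the main chaperone of the endoplasmic reticulum, was at 1.41 ± 0.06 (level 11002), DDIT3 at 1.32 ± 0.06 (level 2642), TRIB3 at 1.31 ± 0.08 and STC2 at 1.47 ± 0.05 (level 4783). CREB3L1 and CHAC1 had the opposite sign, at -2.25 ± 0.26 and -0.82 ± 0.10. HSP90B1 and XBP1, also targets of the unfolded protein response, were not called, at -0.10 ± 0.06 and -0.11 ± 0.07.

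Amino acid transporters, SLC6A15 included, were called positive in 5 of 22 cases and negative in 10. SLC6A17, of the same subfamily as SLC6A15, was listed at 1.38 ± 0.12 and SLC3A2, the heavy chain of several exchangers, at 0.76 ± 0.05 (level 6197). SLC6A6 for taurine, SLC1A4 and SLC38A3 were negative at -1.54 ± 0.07, -1.46 ± 0.09 and -2.24 ± 0.24. Among genes that take up and process nucleosides such as gemcitabine, SLC29A1, the main uptake carrier, was at -1.46 ± 0.07 (level 3916). DCK, which phosphorylates the drug, was slightly positive at 0.35 ± 0.09, and UPP1, a uridine phosphorylase, was at 1.67 ± 0.08 (level 4506). SAMHD1, which breaks down deoxynucleotides, was at -1.14 ± 0.11.

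Of 23 ABC transporters 12 were called negative and 6 positive. Beside ABCG2, the export pumps for conjugates and drugs ABCC2, ABCC4 and ABCC1 were negative at -2.90 ± 0.22, -1.49 ± 0.07 (level 3254) and -1.08 ± 0.05 (level 7394). ABCA1, which exports cholesterol, was positive at 0.98 ± 0.08. NRF2 targets were balanced, 8 positive and 9 negative of 22, and NQO1, its usual reporter, was not called at -0.01 ± 0.06 (level 3363). OSGIN1 was the most positive of them at 2.40 ± 0.19 and PGD was at -1.31 ± 0.07.

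Interferon-stimulated genes were negative in 20 of 31 cases and positive in 8, beside 36.5% and 32.7% of all genes at 64 or more. IFIT1, an antiviral RNA-binding protein, was listed at -2.64 ± 0.11 (level 554), IFITM1 at -1.64 ± 0.11 (level 412), IFIT3 at -1.31 ± 0.12 and SAMD9 at -1.29 ± 0.12. ISG20 and SP110 were positive at 2.72 ± 0.15 (level 288) and 1.08 ± 0.15, and RSAD2 at 4.79 ± 0.45 at a level of 58.7. Class I antigen presentation genes were called negative in 9 of 13 cases and positive in 1. CALR and PDIA3, chaperones that load peptides among other work, were at -1.06 ± 0.06 (level 10865) and -0.74 ± 0.06 (level 8945), and PSME1, which activates the proteasome, at -0.94 ± 0.08.

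Cytokines of tumour cells differed in sign. CSF1, the growth factor of macrophages, was listed at -2.74 ± 0.06 (level 2927). CCL2, which draws monocytes, was at -2.57 ± 0.20 (level 2886). CX3CL1 was positive at 0.45 ± 0.12, and CXCL2 and CXCL5 were positive at levels of 30.1 and 21.1. Among NF-kB genes 9 of 21 were positive and 7 negative. The inhibitor NFKBIA was at -0.87 ± 0.07 (level 1168), TNFAIP2 at -1.46 ± 0.06 (level 4096), and RELB and TRAF1 at 0.94 ± 0.13 and 0.88 ± 0.13.

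Axon guidance genes were called negative in 17 of 32 cases, 13 of them past a halving, and positive in 7. Over all genes at 64 or more 36.5% were called negative, 7.14% negative past a halving, and 32.7% positive. The semaphorins SEMA3D, SEMA3F and SEMA3C, secreted repellents that also act on vessels, were listed at -3.28 ± 0.20, -3.14 ± 0.09 (level 895) and -1.83 ± 0.06 (level 15276). The ephrins EFNB2 and EFNB1 were at -2.68 ± 0.24 and -1.83 ± 0.12, SLIT3 at -1.70 ± 0.10 and its receptor ROBO1 at -1.45 ± 0.07 (level 1917). ROBO3 and NTN1 were positive at 1.50 ± 0.13 and 1.10 ± 0.15.

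Synaptic adhesion genes were 8 positive and 4 negative of 16. SYT1, a calcium sensor of vesicle release, had the sign of NPTX1, at 2.72 ± 0.10 (level 651), and AMIGO2 was at 0.43 ± 0.07 (level 1100). NPTXR, the membrane pentraxin that pairs with NPTX1, was not called at -0.09 ± 0.10, with a 95% interval from -0.29 to 0.11. L1CAM, an adhesion molecule of neurons and invasive tumours, was negative at -1.63 ± 0.06 (level 7220) and CADM1 at -1.43 ± 0.17.

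Of the potassium channel genes 3 of 9 were positive and 6 negative. KCNE4, an auxiliary subunit, was listed at 2.55 ± 0.24, with the opposite sign to KCNK3. The epithelial sodium channel subunit SCNN1A was at -2.44 ± 0.19 (level 140), with the sign of SCNN1B and SCNN1G, while SCNN1D was positive at 0.64 ± 0.15. Among S100 proteins S100A10, which holds plasminogen at the cell surface with annexin, was at -1.70 ± 0.05 (level 4760) and S100A13 at -1.45 ± 0.08. S100A2 was positive at 0.81 ± 0.23.

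HOX genes were called negative in 14 of 17 cases and positive in 2, beside 36.5% and 32.7% of all genes at 64 or more. HOXC13, HOXB6 and HOXC10 were listed at -1.61 ± 0.09 (level 592), -1.25 ± 0.09 (level 681) and -1.11 ± 0.09 (level 654), and HOXB4 and HOXB7 were positive at 0.53 ± 0.08 and 0.24 ± 0.08. Of 7 lineage factors of pancreas and foregut, GATA5, ONECUT3 and GATA4 were negative at -0.74 ± 0.09, -0.99 ± 0.13 and -0.66 ± 0.14. SOX9, the duct and progenitor factor, was positive at 0.70 ± 0.07 (level 1008). FOXA2 was not called, at 0.02 ± 0.10. Of the genes of the classical subtype MUC16, the mucin that carries a tumour marker of ovary, was at -3.23 ± 0.31 and AGR2 at -1.01 ± 0.07 (level 3296).

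Imprinted genes were positive in 12 of 28 cases and negative in 5. H19, a maternally expressed RNA, was listed at -3.04 ± 0.22 (level 4004), with an SE above 0.2. CDKN1C, PHLDA2 and SLC22A18, maternally expressed genes of the neighbouring domain, had the opposite sign, PHLDA2 at 1.13 ± 0.27 and SLC22A18 at 1.18 ± 0.12. MEG3, a maternally expressed RNA of another domain, was at 1.76 ± 0.06 (level 2185), and DIO3 of that domain at -1.29 ± 0.20. Of 20 genes at 64 or more that are recurrently mutated in this cancer, 2 were called positive and 8 negative, or 1 and 4 with a t distribution. None of them passed a doubling or halving, which 6.06% and 7.14% of all genes at that level did. SMAD4 was not called, at -0.14 ± 0.07.

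**Figure D5:**
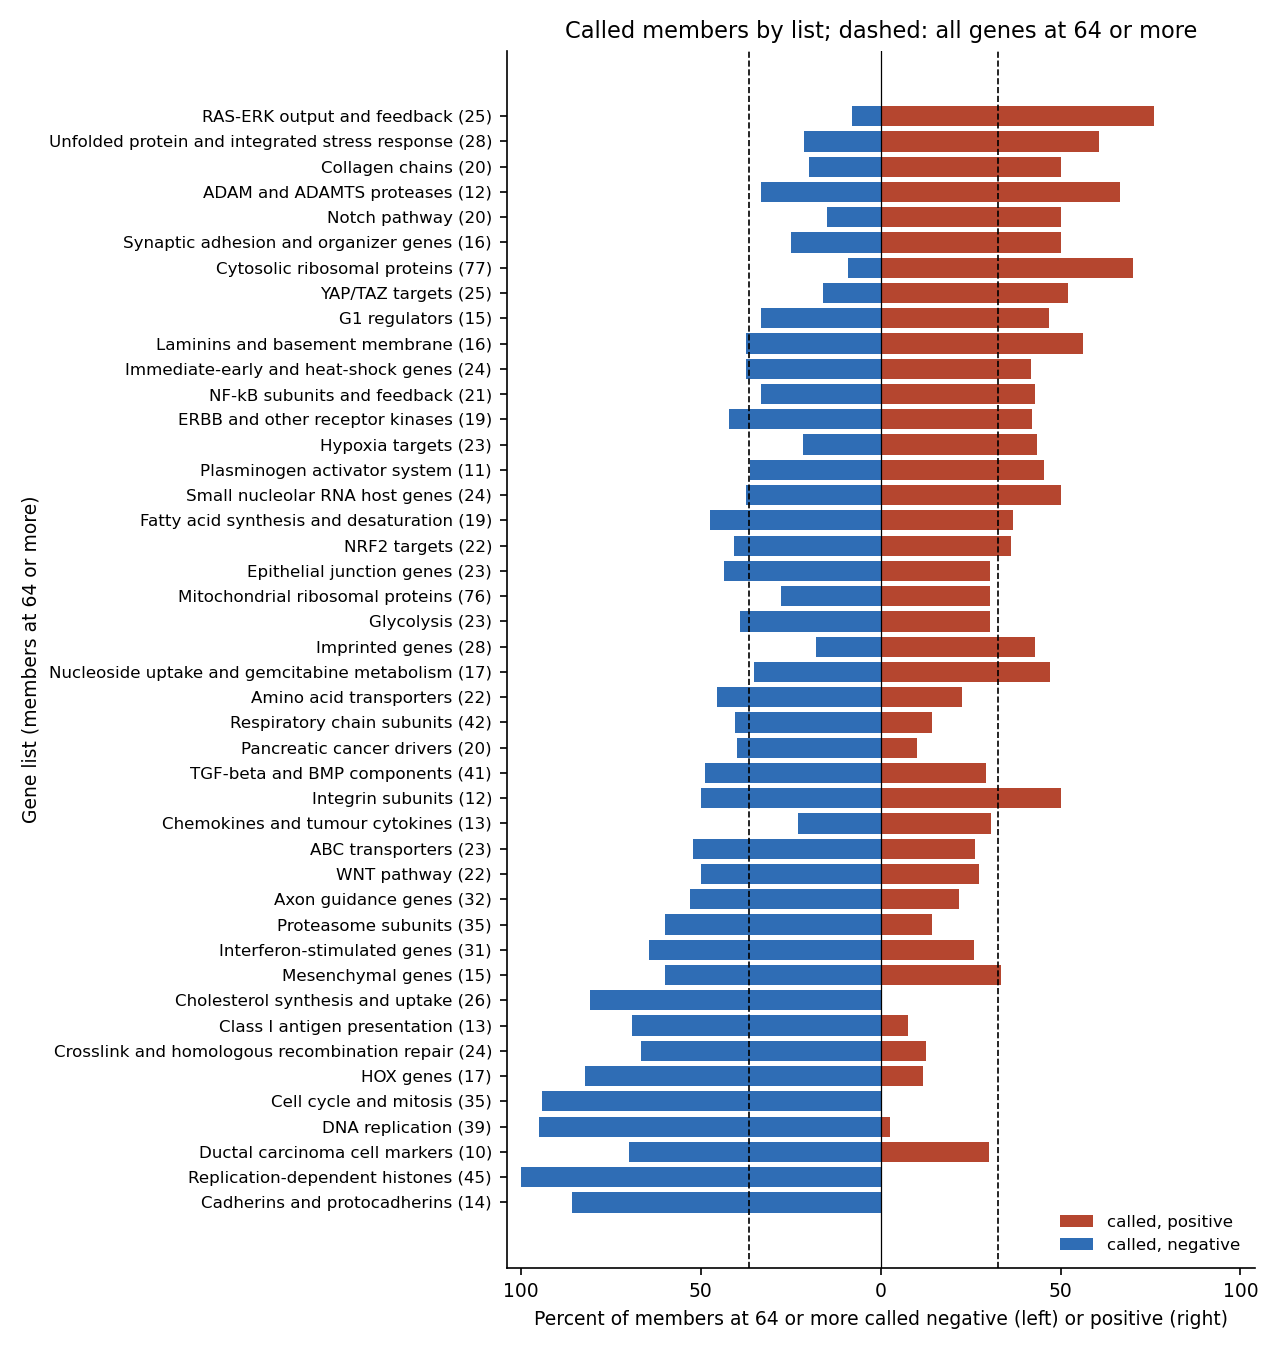
Bars give the percent of members at a level of 64 or more called positive (right, red) and negative (left, blue) for each list with 10 or more such members, ordered by median log2 fold change, and the dashed lines mark 32.7% and 36.5% for all genes at that level. Replication-dependent histones, cell cycle, DNA replication, cadherins, HOX and cholesterol genes pass the negative line by most, and ERK output and cytosolic ribosomal proteins the positive one.

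The labelled cell type was checked against its markers. Of 11 ductal carcinoma markers with a row 10 reached 64, with a summed level of 0.867% of the total of all genes, although 7 of them were called negative and 3 positive. The 6 lists of host cells held 101 markers, of which 47 had a row and 7 reached 64. Their summed shares of all counts, not divided by gene length, were 0.00121% for hepatocytes, 0.00768% for leukocytes, 0.00509% for fibroblasts and stellate cells, 0.00284% for endothelium and 0.000514% for acinar and islet cells. CD68, a macrophage marker that many tumour lines transcribe, was listed at 1.91 ± 0.07 (level 1103), COL3A1 is given above, and PRSS3, a trypsinogen, was at 4.50 ± 0.36 (level 74). EGFL7 of endothelium was not called, at -0.18 ± 0.22 (level 370), and CPS1 of hepatocytes was at -1.45 ± 0.18 (level 132). The table was made for human genes, so how far reads of the mouse host entered these values was not tested.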

How the data were processed

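RNA was sequenced from 3 PANC1 and 3 PANC1 LM3 samples. The submitters' processing notes name STAR 2.7.6a, featureCounts 2.0.0, MultiQC 1.9, DESeq2 1.24 and the builds hg19 and mm39, without settings, annotation or model design. The authors deposited 1 comparison table for these groups with no value per library, so the depth of each library is unknown. Its mean normalised count is a signal per gene that the authors computed over libraries, read as in DESeq2. Log2 fold changes and SEs were deposited on the log2 scale, and the deposited Wald score equals their ratio within 1.7e-13. Deposited p-values equal the normal p of that score within 2.7e-15, and adjusted p-values a Benjamini-Hochberg adjustment within 1.2e-15. A signed p column was not used, and 0 columns of other samples were set aside.

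From the table, calls were counted at an adjusted p under 0.05 and a level of 64 or more. Gene lists were described by counts and medians without a set test. Intervals are normal 95% intervals from the listed SE. The members and lists were chosen with earlier results of these data known. There were 52 lists, and 12 more were added after the table had been seen, among them histones, small nucleolar RNA host genes, repair, proteasome, mitochondrial ribosomal proteins, MAP kinase phosphatases and ABC transporters. Named genes were the 12 most positive and 12 most negative called genes at 64 or more, leaving out clone names, pseudogenes and host markers; the 5 smallest p-values per sign, ties ordered by Wald score; up to 6 called members per list and sign, with other members as contrasts or for their role; family members of these; and host markers by abundance. Some genes under this rule are left out here. The planned medians by chromosome were not computed, since human gene positions were not used here. Alternatives were a stricter p, a minimum fold, other adjustments, recentring, a t distribution (4 degrees of freedom), a running median over 501 genes and other levels. The steps were tested on simulated data. Figures were drawn with matplotlib 3.10.9, and values computed with scipy 1.17.1, pandas 2.3.3 and numpy 2.4.6 in Python 3.11.15.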

Additional observations from a re-analysis of the deposited data

How the results depend on the processing

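Requiring an absolute log2 fold change over 1 left 2759 genes called in place of 9361, and 1492 in place of 7826 at a level of 64 or more, fewer because it is a stricter rule. The counts stayed within 1.5 times under the other alternatives run for them. A t distribution with 4 degrees of freedom gave the lowest of these, 6342 genes in all and 5719 at 64 or more. Recentring subtracted the median of -0.03 at 64 or more, which moved values up by that amount. Of the 367 genes named, 11 lost their call with the t distribution: ADAM17, DCK, HOXB7, KRT10, KRT80, LAMA5, MMP15, RECK, RMRP, S100A2 and SNAI1. Recentring ended the call of RECK, and the running median those of KRT10 and RMRP. Of genes not called, CDC25B passed under recentring and the running median, and AMOTL2, RN7SK, RN7SL1, RN7SL2, SREBF2 and VEGFA under the running median alone. Signs turned for 4 genes that were not called as listed. With the running median BUB3 was at 0.072, CRIM1 at 0.044, KRT7 at -0.026 and NQO1 at 0.096. With recentring NQO1 was at 0.022. In each case the amount subtracted had the sign of the listed value and was larger in size. No paired analysis was possible because the table holds no values per library. For the same reason leaving out a replicate, edgeR and a new DESeq2 fit were not run. Genes under 64 have wide errors, with a median SE of 1.27 below a level of 4.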

Other observations

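The genes in this section were chosen after their values were seen. In the authors' deposited table HGF, the growth factor that binds MET and is mostly made by stromal cells, was listed at 3.26 ± 0.10 (level 615), with the sign of MET and MMP1. The small adaptor genes BEX2 and BEX4, which are often silenced in tumours, were at 3.23 ± 0.12 (level 421) and 4.15 ± 0.26 (level 122), and their relative BEX3 at 0.73 ± 0.08 (level 767). ALPG and ALPP, near-identical placental-type alkaline phosphatases that can share reads, were at -3.79 ± 0.09 (level 1514) and -3.63 ± 0.21 (level 177).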
